A study of Mus musculus with 3 samples.

Results

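Among the 33762 features counted in the embryonic mouse gut, 16 carried a provisional name (Gm with a number, or a Riken clone name ending in Rik) and differed strongly in level between caecum, colon and ileum. They were chosen by these levels. A feature was kept if its mean count reached 100 in at least 1 tissue and if its highest level was 4 or more times its lowest, in CPM (the count scaled to the total of its library) with 0.05 added, and features overlapping the 4 Hox clusters were left out. The table held 9185 Gm and Rik features, of which 2383 had 100 counts or more outside the Hox clusters. All 16 are named below, and 9 of them have since been given a gene name.

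The libraries came from wild-type embryos of the strain labelled Bl6/C57 at E13.5, with 1 sample each of caecum, colon and presumptive ileum, the last portion of the divided small intestine. The labels give no mutant allele or treatment for any of them, and polyadenylated RNA was read in each. Whether a sample pools embryos is not given in the sources used here. Mean totals were 64439972, 50773032 and 50079916 counts in caecum, colon and ileum, and Gm and Rik features took 11.5%, 12.1% and 12.01% of them. The 2 count columns of a tissue belong to 1 sample, differed by about the sampling noise or less, and were counted as 1 sample, so no test across samples is given. Ratios below are of CPM, with exact 95% Clopper-Pearson intervals in brackets that cover counting error only. Each interval takes the mean count of the 2 columns, rounded to a whole number, as 1 count. Whether the columns hold separate reads, which would narrow the intervals, is not given in the sources used here.

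Gm and Rik names are placeholders, given to transcripts that were predicted from the genome or cloned before anything was known of their product. Some later prove to encode proteins and receive a name, while others are long noncoding RNAs, which are spliced and polyadenylated but have no long reading frame. Many noncoding RNAs start close to the promoter of a coding gene on the opposite strand, an arrangement called divergent or head to head, and are often made in the same cells as that gene. In the hindgut and elsewhere, genes at the 5′ ends of the Hox clusters mark the most posterior part of the embryo.

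The RefSeq promoter table held the starts of 9 of the 16. The first 3 sequences belong to features that start head to head with a coding gene, and the last 2 to a pair of near-identical transporter genes, which share their pattern. Each runs 5′ to 3′ from 250 bases before to 50 bases after the annotated start in GRCm38.p6. Capitals mark CG dinucleotides in the 3 head-to-head features and, in the pair, the motifs TTTATG and AGATAA or their complements. The windows are those of Gm15053, now Hottip (chr6:52262525-52262824, plus strand), 5730457N03Rik, now Evx1os (chr6:52314783-52315082, minus strand), A730020E08Rik (chr6:61180761-61181060, minus strand), Gm14085, now Slc28a2b (chr2:122484691-122484990, plus strand), and its paralogue Slc28a2 (chr2:122426185-122426484, plus strand).
Hottip: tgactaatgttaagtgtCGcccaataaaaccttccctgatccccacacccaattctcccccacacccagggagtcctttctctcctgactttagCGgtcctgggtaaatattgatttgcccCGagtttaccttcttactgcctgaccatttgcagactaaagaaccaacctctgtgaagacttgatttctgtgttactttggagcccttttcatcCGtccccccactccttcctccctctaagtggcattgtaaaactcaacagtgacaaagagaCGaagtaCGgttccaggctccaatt
Evx1os: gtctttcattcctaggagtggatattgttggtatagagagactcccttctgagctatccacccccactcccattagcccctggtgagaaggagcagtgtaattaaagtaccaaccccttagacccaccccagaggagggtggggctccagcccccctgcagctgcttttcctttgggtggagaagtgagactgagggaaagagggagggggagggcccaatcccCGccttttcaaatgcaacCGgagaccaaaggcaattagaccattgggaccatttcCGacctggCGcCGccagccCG
A730020E08Rik: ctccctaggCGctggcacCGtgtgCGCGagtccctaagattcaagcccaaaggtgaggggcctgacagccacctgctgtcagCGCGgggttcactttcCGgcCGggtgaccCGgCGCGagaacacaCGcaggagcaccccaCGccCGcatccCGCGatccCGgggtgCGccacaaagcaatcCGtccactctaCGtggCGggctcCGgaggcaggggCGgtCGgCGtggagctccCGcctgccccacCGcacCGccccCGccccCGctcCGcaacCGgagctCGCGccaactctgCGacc
Slc28a2b: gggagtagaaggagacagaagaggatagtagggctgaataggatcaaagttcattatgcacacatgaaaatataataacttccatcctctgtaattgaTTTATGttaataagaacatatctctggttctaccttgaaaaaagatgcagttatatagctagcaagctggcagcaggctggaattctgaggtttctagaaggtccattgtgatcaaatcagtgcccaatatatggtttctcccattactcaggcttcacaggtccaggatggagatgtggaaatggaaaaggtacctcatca
Slc28a2: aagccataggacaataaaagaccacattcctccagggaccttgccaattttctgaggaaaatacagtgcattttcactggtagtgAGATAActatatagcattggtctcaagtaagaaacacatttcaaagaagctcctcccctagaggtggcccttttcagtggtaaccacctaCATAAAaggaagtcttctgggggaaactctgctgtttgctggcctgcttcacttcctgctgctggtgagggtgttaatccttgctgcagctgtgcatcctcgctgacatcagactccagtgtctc

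The window of A730020E08Rik held 35 CG dinucleotides and those of Hottip and Evx1os 6 each, against a median of 7 over the 32851 windows of the table. Their coding partners Hoxa13, Evx1 and Ccser1 (Fam190a in the deposited table) had 45, 12 and 46. The windows of Slc28a2b and Slc28a2 held 0 and 1. Motifs were searched on both strands in the windows of the members and of Slc28a2. TATAAA, the TATA box, occurs in 13.6% of all windows. The letters AGATAA, read by GATA factors, occur in 11.2%, and the caudal-type motif TTTATG in 11.9%. The forkhead motif TGTTTAC occurs in 3.65%, CAAAGTCCA, read by HNF4, in 0.475%, and the palindromic HNF1 motif in 0.00913%. No 2 of them overlap in these windows, though the complement of TTTATG differs from TATAAA in its first letter only. Among the members, TATAAA was found in 1 of the 2 windows of 1300002K09Rik, as its reverse complement and at position -144 from the start. AGATAA was found in 1 window of 2210415F13Rik, TTTATG in that of Gm14085 and TGTTTAC in that of E130114P18Rik. The window of Slc28a2 held both AGATAA and TTTATG. A match is a run of letters and not a bound site.

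**Figure D1:**
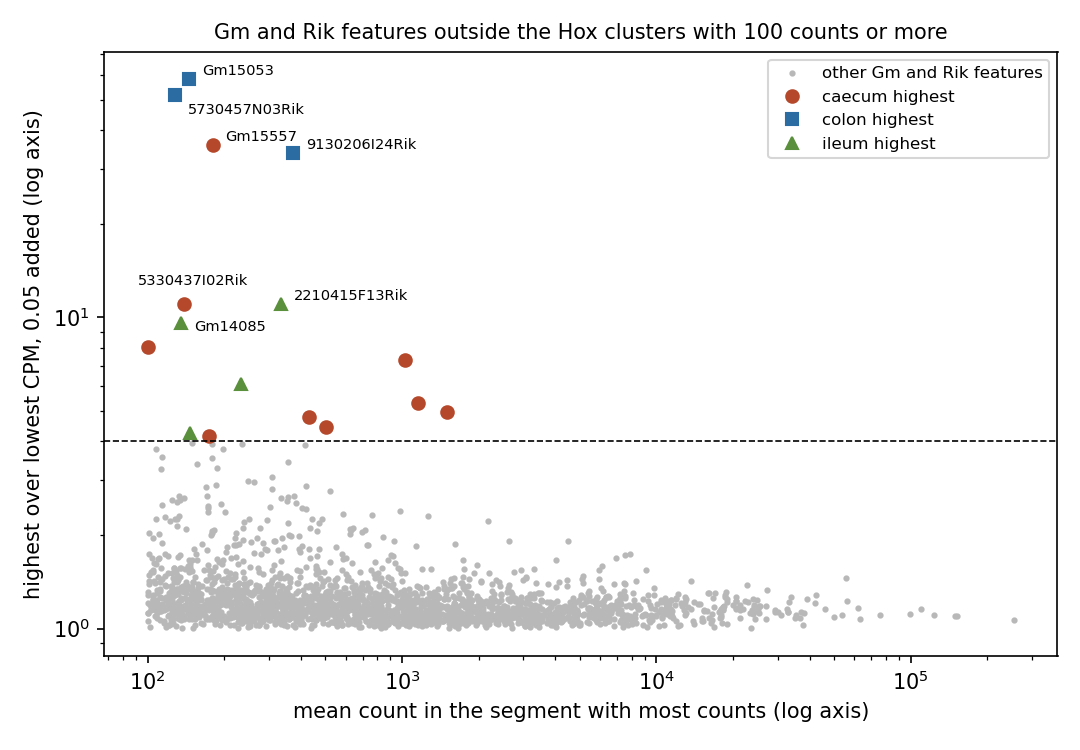
Highest over lowest CPM (0.05 added, log axis) against the mean count in the tissue with most counts (log axis) for the 2383 Gm and Rik features with 100 counts or more outside the Hox clusters; the dashed line is the 4-fold threshold. The 16 features above it include 9 highest in the caecum, 3 in the colon and 4 in the ileum, and the 4 furthest apart have 128.5 to 373.5 counts.

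As a group of mixed types, few features with provisional names were 4-fold apart between the tissues. Past the 4-fold threshold were 0.671% of Gm and Rik features with 100 counts (16 of 2383). The shares were 3.15% of named genes (392 of 12439) and 2.73% of all features (412 of 15072). Hox clusters were left out of the Gm and Rik features only, so the comparison is not fully alike. The lower share of Gm and Rik features held at each level of counts: it was 1.44% against 10.9% of named genes at 100 to 300 counts, 0.559% against 5.11% at 300 to 1000, and 0.288% against 1.31% from 1000 counts. The 16 were rare transcripts, with a median of 1.56 RPKM (the authors' read number scaled to transcript length and depth, range 0.296 to 13.1) in their highest tissue, against 10.3 RPKM for the other 2367 Gm and Rik features and 8.90 RPKM for named genes. By GENCODE vM21, 10 of the 16 are protein coding, 4 long noncoding and 0 pseudogenes, while Gm4798, a pseudogene by RefSeq, and A730020E08Rik, a noncoding RNA there, have no vM21 entry. Of the other 2367, of which 1975 have an entry, 31.0% are protein coding, 7.94% long noncoding and 44.5% pseudogenes. Whether the share past the threshold is also lower within a type was not tested.

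The caecum was the highest tissue for 9, the colon for 3 and the ileum for 4. Over all features, 1.13%, 0.736% and 0.869% were past the threshold with the highest level in caecum, colon and ileum. Between pairs of tissues, 6 of the 16 were 4-fold or more above and 2 below the colon level in the caecum (0.969% and 0.391% of all features). The numbers were again 6 and 2 for the caecum against the ileum (0.836% and 0.372%), and 4 and 4 for the colon against the ileum (0.796% and 0.836%). Because the 16 were chosen for being 4-fold apart, their higher shares follow from the choice. Of the 412 features past the threshold, 146 stood 4-fold or more above and 59 below the colon level in the caecum. The numbers were 126 and 56 for the caecum against the ileum, and 120 and 126 for the colon against the ileum. Just inside the threshold were A730020E08Rik, 1110032F04Rik and Gm4798, at 4.16, 4.24 and 4.46 times. These 3, Gm11532 and D430041D05Rik were under 4-fold with 0.5 in place of 0.05 added to each CPM, A730020E08Rik, 1110032F04Rik and D430041D05Rik also by the authors' RPKM, and Gm11532 was not kept by the second count column alone. Just outside were Gm16499, 2700069I18Rik and 3110047P20Rik, at 3.95, 3.92 and 3.92 times.

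**Figure D2:**
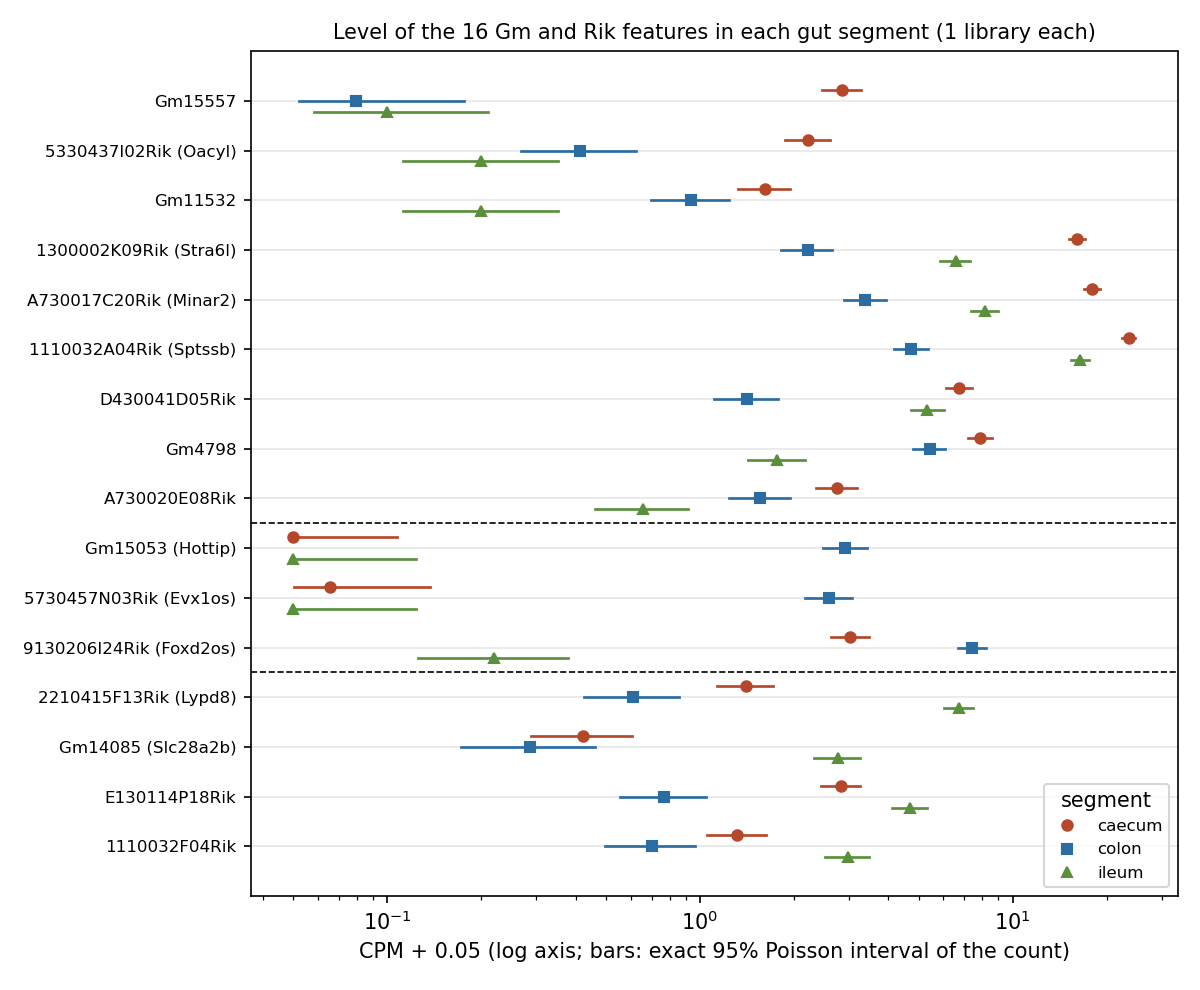
Level of each of the 16 features in caecum (circles), colon (squares) and ileum (triangles), as CPM with 0.05 added on a log axis, 1 library per tissue; bars are exact 95% Poisson intervals of the count, and dashed lines separate features highest in caecum, colon and ileum. Gm15053 (Hottip) and 5730457N03Rik (Evx1os) reach 2.87 and 2.53 CPM in the colon and stand at or near 0 in the other tissues, while Sptssb has the highest level of the set, 23.4 CPM in the caecum.

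The 9 features highest in the caecum fell into 2 patterns: the colon was lowest for 5 of them and the ileum for 4. The pattern with the colon lowest held 5, all protein coding by GENCODE vM21: Gm15557 and 4 with 431.5 to 1508 counts in the caecum. These 4 had intermediate levels in the ileum.

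1300002K09Rik, now Stra6l (chromosome 4, 45861536 to 45899880, plus strand, mm9), encodes a relative of the retinol transporter Stra6 and is also known as a receptor for retinol-binding protein. It had 1031.5 counts in the caecum, 109.5 in the colon and 326 in the ileum, or 1.67, 0.225 and 0.679 RPKM. The caecum level was 7.42 times that of the colon (6.07 to 9.08) and 2.46 times that of the ileum (2.17 to 2.80), so the 3 levels stood apart beyond counting error. Rbp4, which encodes the retinol-binding protein of blood, was chosen for mention after its values were seen. It had 3393 counts in the caecum, 129 in the colon and 470.5 in the ileum, the same order of tissues.

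A730017C20Rik, now Minar2 (chromosome 18, 59221902 to 59236616, plus strand), a membrane protein named for its association with NOTCH2, had 1152.5 counts in the caecum, 169 in the colon and 404.5 in the ileum. The caecum stood 5.37-fold above the colon (4.57 to 6.36) and 2.21-fold above the ileum (1.97 to 2.48). 1110032A04Rik, now Sptssb (chromosome 3, 69623460 to 69663818, minus strand), encodes a small subunit of serine palmitoyltransferase, the enzyme that starts sphingolipid synthesis. With 1508, 238 and 819 counts in caecum, colon and ileum, or 13.1, 2.62 and 9.16 RPKM, it was the most abundant of the 16. Its caecum level was 4.99-fold (4.35 to 5.75) above the colon and 1.43-fold (1.31 to 1.56) above the ileum. D430041D05Rik (chromosome 2, 103983230 to 104250491, minus strand), a protein-coding gene of a long span, had 431.5, 69 and 264.5 counts. Its caecum level was 4.93-fold above the colon (3.82 to 6.46) and 1.27-fold above the ileum (1.08 to 1.48). In both Sptssb and D430041D05Rik, caecum and ileum were close and the colon stood apart.

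Gm15557 (chromosome 2, 155766464 to 155768486, plus strand) differed most of the features highest in the caecum. It had 180 counts in the caecum, 1.5 in the colon and 2.5 in the ileum, and the caecum stood 94.5-fold above the colon (19.3 to 590.0) and 56.0-fold above the ileum (15.7 to 228). Its colon to ileum ratio, 0.592 (0.0549 to 5.74), does not set which of these is lowest. It overlaps Gdf5, a bone morphogenetic protein family gene known for joint formation, tail to tail on the opposite strand, over 1728 of its 2023 bases. Gdf5 had 466 counts in the caecum, 5.5 in the colon and 4 in the ileum. Whether counting used strand is not given in the sources used here, so reads of the overlap cannot be assigned to one gene or the other.

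The 4 with the ileum lowest were all at 504.5 counts or fewer. 5330437I02Rik, now Oacyl (chromosome 18, 65857922 to 65911255, plus strand), named as an acyltransferase, had 139 counts in the caecum, 18.5 in the colon and 7.5 in the ileum. The caecum was 5.92-fold (3.56 to 9.86) above the colon and 14.4-fold (6.67 to 31.9) above the ileum, while its colon to ileum ratio, 2.43 (0.979 to 6.19), did not clear counting error. Gm11532 (chromosome 11, 96881822 to 96887562, minus strand) is a noncoding RNA that overlaps the transcription factor gene Sp6 tail to tail over 4227 of its 5741 bases. It had 100.5 counts in the caecum, 45 in the colon and 7.5 in the ileum, just above the count minimum, and its caecum level was 1.76 times that of the colon (1.23 to 2.57) and 10.4 times that of the ileum (4.79 to 23.3). Sp6, a zinc finger factor known from tooth and skin development, had 197.5, 87 and 14 counts in the same tissues.

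Gm4798 (chromosome 10, 71167326 to 71168033, plus strand), a pseudogene by RefSeq, had 504.5 counts in the caecum, 272.5 in the colon and 86 in the ileum. The caecum stood 1.46-fold above the colon (1.26 to 1.69) and 4.56-fold above the ileum (3.62 to 5.80). Reads of a pseudogene can be shared with its parent gene, so its count is uncertain. A730020E08Rik (chromosome 6, 61125607 to 61130804, minus strand) is a noncoding RNA with 173.5, 76.5 and 30.5 counts in caecum, colon and ileum. Its caecum level was 1.79 times that of the colon (1.35 to 2.36) and 4.42 times that of the ileum (2.96 to 6.62). It starts head to head with Fam190a, which encodes a coiled-coil serine-rich protein, and the spans overlap by 487 bases. Fam190a had 1210.5, 442 and 218.5 counts, so the order of the tissues was the same in both.

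The 3 features highest in the colon were all noncoding RNAs beside a developmental transcription factor gene. Gm15053, the long noncoding RNA Hottip (chromosome 6, 52212769 to 52217597, plus strand), is known in human cells for keeping the 5′ HoxA genes active. It had 0 counts in the caecum, 145.5 in the colon and 0 in the ileum, so the caecum level was at least 61.6-fold lower than that of the colon. The colon stood at least 47.8-fold above the ileum, with counts of 0 set to a floor of 3. Hoxa13, the posterior-most gene of the HoxA cluster, starts 1895 bases away in the other direction and had 81 counts in the caecum, 2309.5 in the colon and 0 in the ileum. In the caecum, 0 Hottip counts beside 81 of Hoxa13 allow up to 4.66 Hottip counts per 100 of Hoxa13, against 6.30 (5.31 to 7.47) in the colon.

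5730457N03Rik, now Evx1os (chromosome 6, 52258383 to 52264826, minus strand), is antisense to the start of Evx1, a homeobox gene at the end of the HoxA cluster. It had 1 count in the caecum, 128.5 in the colon and 0 in the ileum. Its level in the caecum was 0.00613 times that of the colon (0.000153 to 0.0346), and the colon stood at least 42.2-fold above the ileum. Evx1 had 4, 108.5 and 0 counts in the same tissues. The mm9 spans overlap by 1335 bases, and by GENCODE vM21 73 bases are exonic in both genes. Both Hottip and Evx1os lie outside the outermost Hox genes of the cluster and were therefore not removed with it. Left out as overlapping a Hox cluster, but past the same limits, were Gm14396 with 493, 40 and 0 counts, 1700109F18Rik with 518, 74 and 55, and Gm53 with 544.5, 556.5 and 19.5.

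9130206I24Rik, now Foxd2os (chromosome 4, 114581862 to 114594572, plus strand), had 191.5 counts in the caecum, 373.5 in the colon and 8.5 in the ileum. It was thus counted in caecum and colon and was scarce in the ileum. Its caecum level was 0.404 times that of the colon (0.338 to 0.483) and 17.5-fold (8.55 to 36.8) above the ileum, and the colon was 43.3-fold (21.4 to 90.3) above the ileum. Foxd2, a forkhead factor gene, starts 359 bases away in the other direction with no overlap. It had 167 counts in the caecum, 311 in the colon and 5.5 in the ileum, and a caecum to colon ratio of 0.423 (0.348 to 0.512). Of the distal gut markers, Hoxd13 had 13, 2354.5 and 1 counts in caecum, colon and ileum, and Hoxb13 had 0, 620.5 and 0. Their part in these results was not tested.

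In the 4 features highest in the ileum, the colon was the lowest tissue each time. 2210415F13Rik, now Lypd8 (chromosome 11, 58192545 to 58204230, plus strand), is known in the adult mouse colon as a secreted protein of the epithelium that binds flagellated bacteria. It had 87 counts in the caecum, 28.5 in the colon and 334.5 in the ileum, and its level in the colon was 0.0840 times that of the ileum (0.0563 to 0.125). At this stage the adult site, the colon, was the tissue with least Lypd8.

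Gm14085, now Slc28a2b (chromosome 2, 122310677 to 122353776, plus strand), is a paralogue of Slc28a2, a sodium-coupled nucleoside transporter. It had 24 counts in the caecum, 12 in the colon and 135.5 in the ileum, at 0.138 (0.0849 to 0.213) and 0.0874 (0.0439 to 0.157) times the ileum level in caecum and colon. Slc28a2 had 124, 55.5 and 644.5 counts, at 0.150 (0.122 to 0.181) and 0.0849 (0.0640 to 0.113) times the ileum level. There were 19.4 (11.95 to 30.1), 21.6 (10.45 to 40.4) and 21.0 (17.4 to 25.4) Slc28a2b counts per 100 of Slc28a2 in caecum, colon and ileum. The transcripts are 95.9% identical over 3751 aligned bases, and 784 of the 3641 stretches of 100 bases (the read length) occur in both, or 21.5%. Reads from these stretches can fall on either gene, so the count of Slc28a2b is uncertain.

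E130114P18Rik (chromosome 4, 97234824 to 97444769, minus strand) is a noncoding RNA by RefSeq and protein coding by GENCODE vM21. It had 178.5 counts in the caecum, 36.5 in the colon and 232 in the ileum. Its colon level was 0.155 times that of the ileum (0.108 to 0.223). It overlaps the start of Nfia, a nuclear factor I gene, by 5345 bases, and Nfia was nearly even, with 5504.5, 4795 and 5169.5 counts. 1110032F04Rik (chromosome 3, 68673508 to 68676085, plus strand), a protein-coding gene with a single exon, had 81.5, 33 and 146 counts, and its colon level was 0.223 times that of the ileum (0.148 to 0.327). Beside this group, the markers of proximal intestine (Gata4, Onecut2, Apob and Fabp2) summed to 59.96, 7.32 and 92.3 CPM in caecum, colon and ileum. Apob carried most of this sum and alone had the order of these features, at 47.5, 0.748 and 68.2 CPM. Gata4 (0.0698, 1.14 and 14.0 CPM) and Fabp2 (0.0543, 0.374 and 2.09 CPM) were lowest in the caecum, and Onecut2 (12.3, 5.05 and 8.04 CPM) was highest there. The 8 epithelial markers summed to 342, 374 and 373 CPM, smooth muscle markers to 847, 1078 and 2234 CPM and those of enteric neurons and glia to 450, 291 and 384 CPM. Markers of liver and yolk sac summed to 56.4, 51.1 and 13.4 CPM. Afp carried most of this sum, at 48.8, 47.3 and 8.65 CPM in caecum, colon and ileum. The rest of the list did not share its order: Ttr and Apoa4 were lowest in the colon, and Alb was highest there. The pancreas, germ cell, striated muscle and urogenital lists each summed to at most 1.26 CPM per tissue, with Ptf1a and Dppa3 at 0. The part of all these markers in these results was not tested. Fewer cells of a type cannot be told apart from less RNA per cell.

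**Figure D3:**
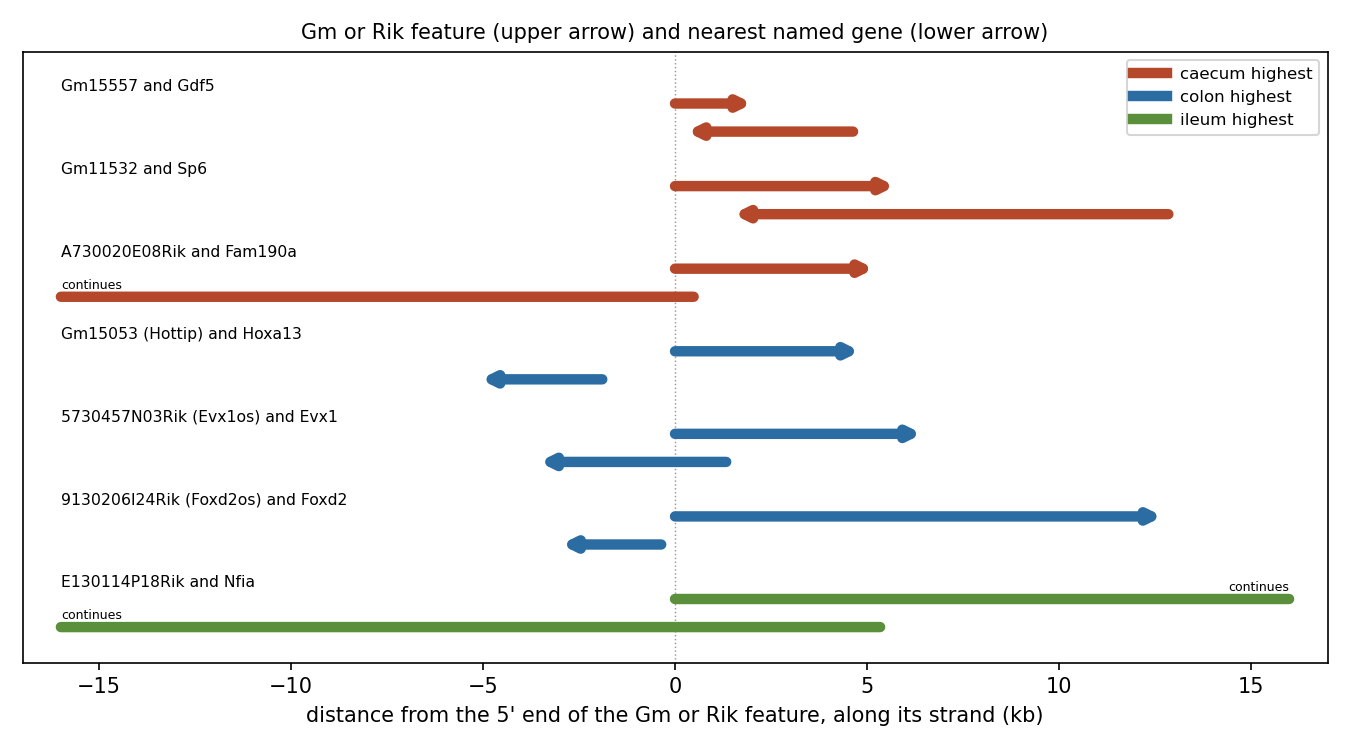
Spans of the 7 features within 2 kb of their nearest named gene (upper arrow of each pair) and of that gene (lower arrow), by distance from the 5′ end of the feature along its own strand; colour gives the tissue where the feature is highest. Gm15557 and Gm11532 run tail to tail with Gdf5 and Sp6, and the other 5 head to head with Fam190a, Hoxa13, Evx1, Foxd2 and Nfia.

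Neighbouring genes often shared the highest tissue of these features. Their levels were not used in the choice. However, Gdf5, Sp6, Fam190a, Evx1 and Nfia overlap their feature on the opposite strand, so reads may be shared and the levels may not be independent. The nearest named gene had the same highest tissue for 12 of the 16, against 39.4% of the other 2367 Gm and Rik features. It was also 2-fold or more apart between tissues for 8 of the 16, against 4.69%, and 4-fold or more for 6 of the 16, against 1.18%. The other features are those below the 4-fold threshold, with a median highest over lowest of 1.17, so their highest tissue is only weakly set. The shares are therefore a description and not a test. The 8 neighbours at 2-fold or more were Gdf5, Sp6, Fam190a, Adamts19, Igfbpl1, Hoxa13, Evx1 and Foxd2. Igfbpl1 had 74, 23 and 15 counts in caecum, colon and ileum, below the count minimum. Its lowest tissue was the ileum, whereas that of Stra6l was the colon. Adamts19 also differed from Minar2 in its lowest tissue, with a caecum to colon ratio of 1.17 (1.06 to 1.29). Of the 9 features with a named gene within 10 kb, 7 shared the highest tissue at 2-fold or more, and of the 7 further away, 1 did, that with Igfbpl1 at 21741 bases from Stra6l. Of the 9 features that overlap no other feature, 4 had such a neighbour. Among the other Gm and Rik features the shares were 4.28% within 10 kb and 5.27% beyond. Distance itself did not set the 16 apart, with a named gene within 10 kb for 9 of them and for 58.3% of the others, and overlap with another feature for 7 of them and for 43.3%.

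All 7 features within 2 kb of their named neighbour lay on the opposite strand from it. The same share was not computed for the other Gm and Rik features, so it is not shown to be particular to these. Head to head with a named gene, with 5′ ends within 5 kb, were 5 of the 16, against 16.48% of the others. The 5 partners were Hoxa13, Evx1, Foxd2, Fam190a and, beside Gm11532, Scrn2. The nearest gene was on a list of developmental factor families for 3 of the 16 (Hoxa13, Evx1 and Foxd2), against 2.15% of the others. That list holds neither Sp nor nuclear factor I genes and was chosen with earlier results of these data known. Hoxa13 and Evx1 lie at the same end of the HoxA cluster. Their features, Hottip and Evx1os, drop out when the Hox clusters are extended, so the count is a description and not a test.

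**Figure D4:**
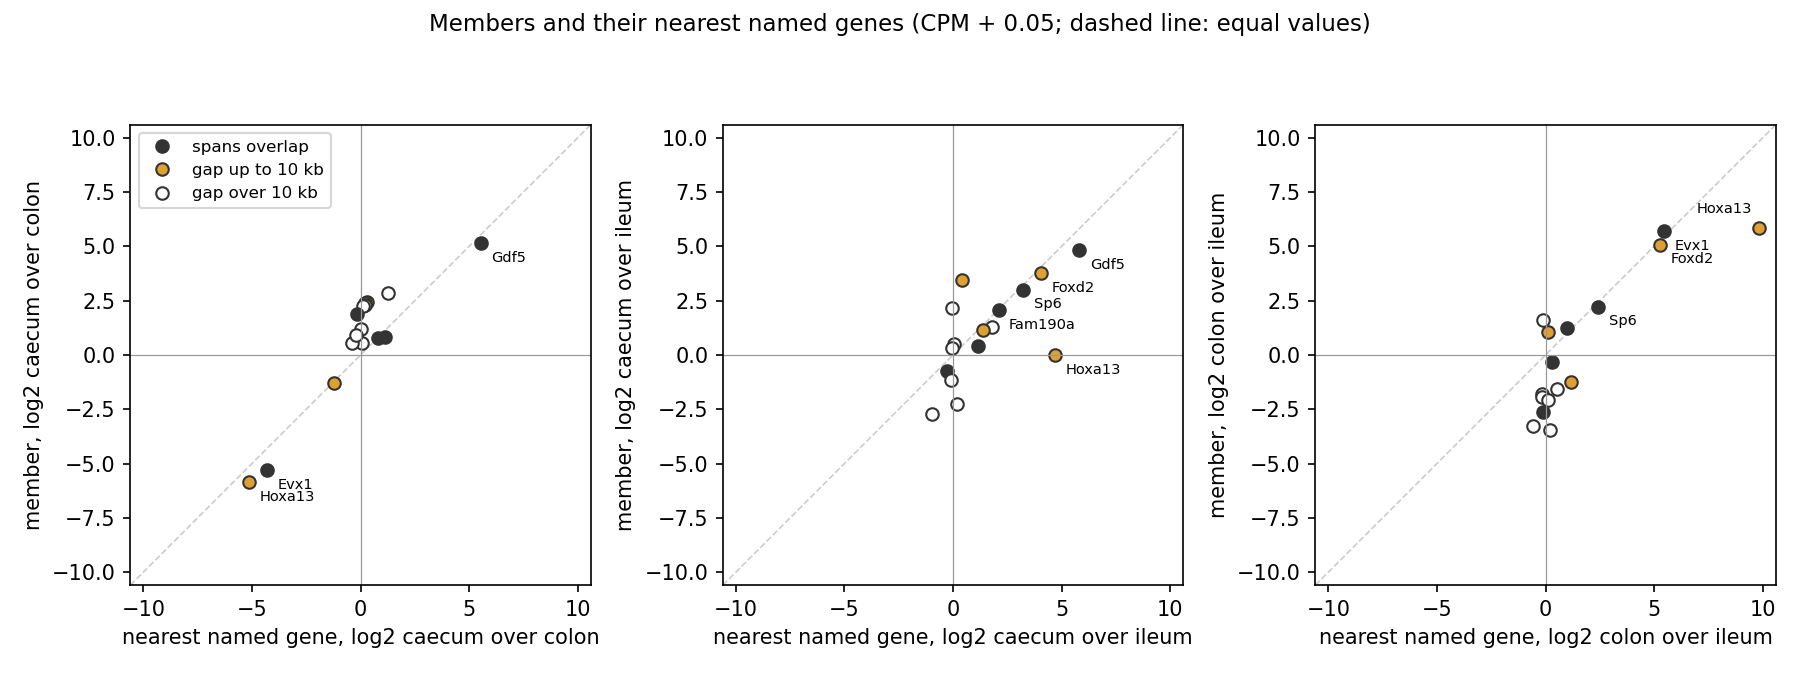
Log2 ratio of CPM (0.05 added) between tissues for each of the 16 features (vertical axis) against its nearest named gene (horizontal axis), for caecum over colon, caecum over ileum and colon over ileum; black points overlap the neighbour, orange points lie within 10 kb and white points further away. The points of Gdf5, Sp6, Evx1 and Foxd2 lie close to the dashed line of equal values, and the white points lie mostly near 0 on the horizontal axis.

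Among pairs within 2 kb, those of Foxd2os, Gm11532, A730020E08Rik and Gm15557 had intervals of the proportion of feature to neighbour that overlapped in all 3 tissues. Foxd2os had 115 (92.9 to 142), 120 (103 to 140) and 155 (47.7 to 512) counts per 100 of Foxd2 in caecum, colon and ileum. Gm11532 had 50.9 (39.7 to 65.1), 51.7 (35.3 to 75.0) and 53.6 (20.8 to 146) per 100 of Sp6. A730020E08Rik had 14.3 (12.2 to 16.9), 17.3 (13.49 to 22.2) and 14.0 (9.39 to 20.7) per 100 of Fam190a. Overlapping intervals do not show that the proportions are equal. Foxd2os and Foxd2 do not overlap, whereas the other pairs share part of their spans. Gm15557 had 38.6 (32.3 to 46.0) per 100 of Gdf5 in the caecum, and its few counts elsewhere left intervals of 3.29 to 186 in the colon and 10.99 to 443 in the ileum. Evx1os had 118 (91.0 to 154) counts per 100 of Evx1 in the colon, its single count in the caecum left an interval of 0.508 to 253, and both stood at 0 in the ileum.

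In other pairs within 2 kb the proportion differed beyond counting error. Hottip, as given above, had up to 4.66 counts per 100 of Hoxa13 in the caecum, against 5.31 to 7.47 in the colon. There were 3.24 (2.79 to 3.77), 0.761 (0.543 to 1.07) and 4.49 (3.92 to 5.12) counts of E130114P18Rik per 100 of Nfia in caecum, colon and ileum, and the colon interval lay below both others. 5330437I02Rik (Oacyl) and A730017C20Rik (Minar2), the pair of features within 10 kb of a gene on their own strand, also differed from their neighbours. Zfp532, a zinc finger gene 8834 bases from Oacyl, had 8680, 5579.5 and 5096 counts in caecum, colon and ileum and its caecum level was 1.32 times that of the ileum (1.28 to 1.37). Adamts19, a secreted protease gene 8570 bases from Minar2, had 1017, 687 and 299.5 counts, so its lowest tissue was the ileum, while that of Minar2 was the colon.

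The nearest named genes of Sptssb, D430041D05Rik, Gm4798, Lypd8 and 1110032F04Rik lay 70496, 16147, 271251, 31315 and 20336 bases away. They were Nmd3, Hipk3, Ipmk, Sh3bp5l and Ift80, whose highest level was at most 1.16 times the lowest. For Slc28a2b it was the pseudogene Bambi-ps1 at 17415 bases, with 15.5, 17 and 26 counts in caecum, colon and ileum.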

How the data were processed

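Per the labels' protocols, RNA was isolated with RNeasy kits, polyadenylated RNA libraries were made with TruSeq reagents, and paired reads of 100 bases were sequenced. Bowtie 0.12.7, DESeq and mm9 are listed without a role, per the submitters' processing notes. The counter, the annotation and whether strand was used are not given in the sources used here. The authors deposited expected counts per feature, some in steps of 0.5, and RPKM values, 2 columns of each per tissue. Both columns belong to 1 sample. Their squared differences averaged 0.459, 0.456 and 0.463 of the variance that counting alone gives in caecum, colon and ileum, over features with at least 20 summed counts. Summed over all features, where abundant ones weigh most, they were 1.06, 0.919 and 1.26 times it.

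The count columns were averaged and divided by their mean total to give CPM. Ratios, spans and overlaps were computed in Python 3.11.15 with pandas 2.3.3 and scipy 1.17.1, and scaling alternatives with edgeR 4.0.16 and DESeq2 1.42.0, for factors only. A count of 0 was set to 3 counts for bounds. A named gene is any symbol that is not a Gm, Rik, clone, accession or small RNA name. Every member is named, as are the neighbours compared. The procedure was tested on simulated data: of 50 features altered by 4-fold and 50 by 6-fold, 29 and 50 passed the threshold. Coordinates are mm9, starts counted from 1. GENCODE vM21 and RefSeq, on a later assembly, gave names and types by identifier, for 14 and 15 of the 16. Some marker values are not reported here. The members and lists were chosen with earlier results of these data known.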

Additional observations from a re-analysis of the deposited data

How the results depend on the processing

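TMM scaling and median-of-ratios size factors gave the same 16 features, and the number stayed within 1.5 times of 16 with 0.5 added to each CPM (11, of which the caecum was highest for 5), with the second count column alone (16, of which 15 are shared, without Gm11532), with the first alone (21) and with the authors' RPKM (14, of which 13 are shared). With 0.5 added, 1110032F04Rik, A730020E08Rik, D430041D05Rik, Gm11532 and Gm4798 were no longer past 4-fold, and the first 3 of these were not with RPKM either. A minimum of 20 counts gave 55 features (20, 25 and 10 highest in caecum, colon and ileum), 30 of them with a nearest named gene of the same highest tissue at 2-fold or more. No minimum gave 81 (24, 38 and 19), 34 of them with such a gene. A minimum of 500 counts gave 4 (4, 0 and 0), 2 of them with such a gene. A threshold of 2-fold gave 92 (45, 19 and 28), 24 of them with such a gene, and one of 8-fold gave 8 (3 highest in the caecum and 2 in the ileum), 5 of them with such a gene. Extending the Hox clusters by the Evx genes and 100 kb dropped Gm15053 and 5730457N03Rik and left 1 feature highest in the colon. Leaving out features that overlap another gave 9 (5 highest in the caecum and 2 in the ileum), 4 of them with such a gene. These settings alter, by construction, which features are tested or what counts as apart. No paired analysis was possible because each tissue has 1 sample and the result comes from no test.

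With 1 library per tissue, differences between embryos or dissections cannot be told apart from differences between tissues. The intervals cover counting error only. Counts of overlapping genes on opposite strands and of near-identical copies are uncertain.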

Other observations

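Below the count minimum, 1103 Gm and Rik features outside the Hox clusters had 20 to 100 counts in their highest tissue. Of these, 39 (3.54%) were 4-fold or more apart, highest in the caecum for 11, in the colon for 22 and in the ileum for 6. At these counts the share was not computed over all features or named genes, so 3.54% is a description only. Their lowest levels rest on few counts, and no intervals are given. The 22 include the 7 features of chromosome 5 given below, which share sequence and are not independent. 9430031J16Rik on chromosome 1 had 65, 2 and 60 counts in caecum, colon and ileum. 4933402E13Rik on chromosome X had 61, 52 and 1.5 counts. Gm1337 had 58.5, 10 and 2 counts, Gm17288 had 2, 25.5 and 0, and Gm13318 had 4.5, 0 and 24. These 5 have the highest ratios of that group.

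On chromosome 5, between 26324591 and 26590848 (mm9), 7 Gm and Rik features of that group lay close together: Gm1979, Gm5862, Gm7347, Gm10471, 5031410I06Rik, Gm10220 and Gm7361. All 7 were highest in the colon, with 12.5 to 36 counts in the caecum (median 23), 20 to 62.5 in the colon (median 44.5) and 1.5 to 5 in the ileum (median 3). Speer4a, a named gene among them, had 18, 31.5 and 3 counts, while Gm5067 in the same stretch had 86.5, 74.5 and 60 counts. Between 9.81% (Gm7361) and 63.6% (Gm1979) of the 100-base stretches of each transcript occur in another of the 7, so reads of these stretches can fall on more than 1 of them.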
